A study of Mus musculus with 4 samples.

Results

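Vitamin A travels, is stored and is activated through a short chain of proteins, and 8 of their genes were examined here in mouse hepatocytes depleted of Topors. The genes were taken by name from the deposited transcript table: Ttr and Rbp4 (plasma carriers), Stra6 (uptake receptor), Crabp2 (cellular binding protein), Rdh10 and Dhrs3 (conversion between retinol and retinal), and Aldh1a1 and Aldh1a2 (oxidation of retinal to retinoic acid). All 8 were among the 52630 gene identifiers of the table, and 6 of them were among the 13509 genes tested. Crabp2 and Aldh1a2 had a mean under 1 TPM, a length-scaled share of all transcripts, and were left out of the test.

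In the body, hepatocytes load retinol onto RBP4 and secrete it, and transthyretin, the product of Ttr, binds the loaded RBP4 in plasma and keeps it from being lost through the kidney. Target cells take retinol from RBP4 through STRA6. Inside the cell RDH10 oxidizes retinol to retinal, DHRS3 reduces retinal back to retinol, and the ALDH1A enzymes carry retinal on to retinoic acid, which CRABP2 delivers to nuclear retinoic acid receptors. Stra6, Crabp2, Dhrs3 and the receptor gene Rarb are themselves known to be induced by retinoic acid in many cells.

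The cells were AML12, a non-tumour hepatocyte line from a mouse with a transgene for human TGF-alpha. Both groups, shCtrl and shTopors, received a lentivirus with a short hairpin RNA, the first a control and the second directed at Topors, an E3 ligase for ubiquitin and SUMO. Per the labels each well got 200 µl of virus concentrate, the medium was replaced at 24 hours and cells were harvested on day 5, in medium with 10% serum and 0.1 µM dexamethasone. Each group had 2 libraries of total RNA depleted of ribosomal RNA, and the labels do not say how many hairpins were used or whether a group's libraries are separate cultures, so every p-value here reflects the spread among these 4 libraries, possibly a technical one. The comparison asks which transcripts differ when Topors is reduced.

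TPM scales each gene by its length and each library to the same total, so levels of different genes can be set side by side, but the number of reads is not kept and the depth is unknown. Topors stood at 21.9 and 29.2 TPM in the controls, against 4.31 and 4.65 TPM in the knockdown libraries, so the knockdown libraries went with their labels. The hepatocyte label was met in part: of 14 hepatocyte markers 10 passed the filter, among them Hnf4a at 95.3 to 179 TPM, while Asgr1, Tat, Cps1 and Fgb had a mean under 1 TPM. Albumin ranged from 4.15 TPM in shTopors 1 to 402 TPM in shTopors 2, on either side of the controls. Of 5 bile duct markers 4 passed the filter, led by Krt19 at 296 to 1396 TPM, while Epcam was close to 0. Of these 4, 1 had both knockdown libraries below both controls, 1 (Krt19) had both above and 2 overlapped. Over all genes tested 35.2% had both below and 14.6% both above. Krt19 in shTopors 2, at 345 TPM, was barely above shCtrl 1, at 341 TPM. Endothelial markers summed to at most 0.228 TPM and leukocyte markers to at most 1.38 TPM in any library. Of 10 stellate cell markers 4 were at 0 in all libraries, including Lrat, which esterifies retinol for storage in those cells, and 1 passed the filter.

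Ttr was lower and Rbp4 higher in both knockdown libraries than in both controls, although their products form one plasma complex. Ttr was at 1119 and 2168 TPM in the controls, against 195 and 410.3 TPM in the knockdown libraries. It thus ranked 64 and 20 among protein-coding genes in the controls and 519 and 191 in the knockdown. The control mean was 1643 ± 742 TPM and the knockdown mean 302.5 ± 152 TPM (SD, n = 2), which is 5.43-fold lower. Rbp4 was at 46.5 and 62.1 TPM in the controls, against 71.2 and 117 TPM in the knockdown libraries, with means of 54.3 ± 11.0 and 94.2 ± 32.6 TPM, 1.74-fold higher. The groups did not overlap for either gene, and the higher Rbp4 control lay close to shTopors 1.

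**Figure D1:**
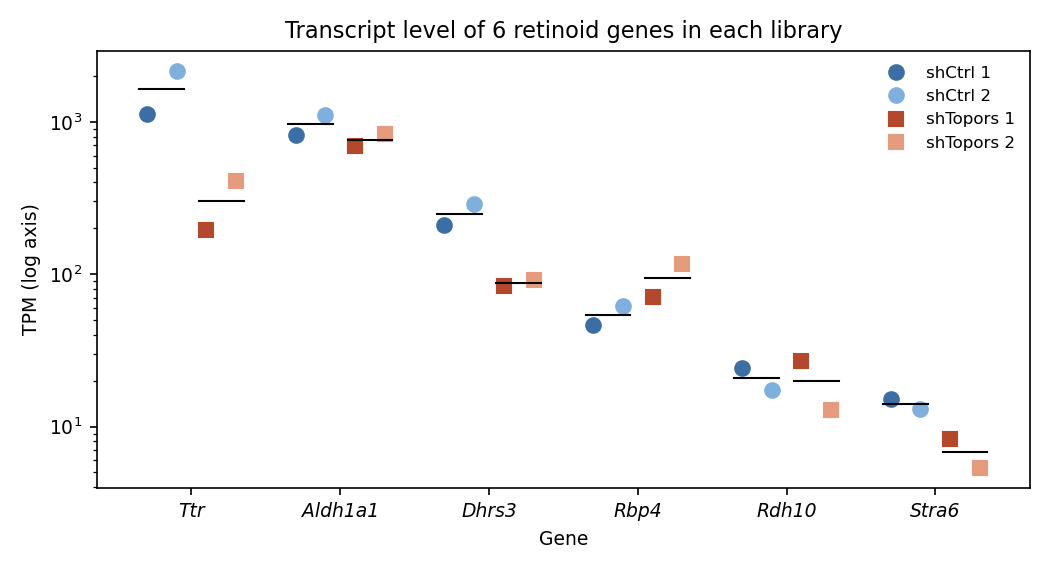
Transcript level in TPM (log axis) of the 6 tested genes in each library, circles for shCtrl and squares for shTopors, with a line at each group mean. Ttr, Dhrs3 and Stra6 sit lower in both shTopors libraries, Rbp4 sits higher, and Rdh10 and Aldh1a1 overlap.

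Neither carrier passed the test over all genes. The test was limma on log2(TPM + 1) across the 13509 genes, and a gene was called at a Benjamini-Hochberg adjusted p under 0.05, which 0.037% of tested genes reached. Topors, the targeted gene, did not reach it either, at a log2 change of -2.27 (adjusted p = 0.0823 in limma's test). The log2 change of Ttr was -2.46 (SE 0.425, adjusted p = 0.129 in limma's test), and that of Rbp4 was 0.76 (SE 0.317), with an adjusted p = 0.336. Only 0.2% of tested genes had a more negative change than Ttr, and 96.1% had a lower change than Rbp4. With shTopors 1 left out, limma's adjusted p was 2.77e-08 for Ttr and 0.0157 for Rbp4, in a fit that called 6.77% of genes lower and 1.78% higher. With shTopors 2 left out it was 2.02e-10 for Ttr and 0.425 for Rbp4, with 10.2% of genes called lower and 4.7% higher. In these fits the lone knockdown library is assumed to vary like the controls. Leaving out shCtrl 1 or shCtrl 2 gave an adjusted p = 0.195 or 0.868 for Ttr and 0.761 or 0.985 for Rbp4.

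The ratio of the 2 carriers within a library does not depend on how libraries are scaled against each other. There were 24.1 and 34.9 Ttr transcripts per Rbp4 transcript in shCtrl, and 2.74 and 3.50 in shTopors. The means were 29.5 ± 7.68 and 3.12 ± 0.539 (SD, n = 2), a log2 difference of -3.23. That difference was between -3.50 and -2.96 with any 1 library left out. With 2 libraries per group an exact permutation test cannot go below p = 0.333, so none was run on this ratio. The 2 ratios of each group lay nearer to each other than to those of the other group.

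**Figure D2:**
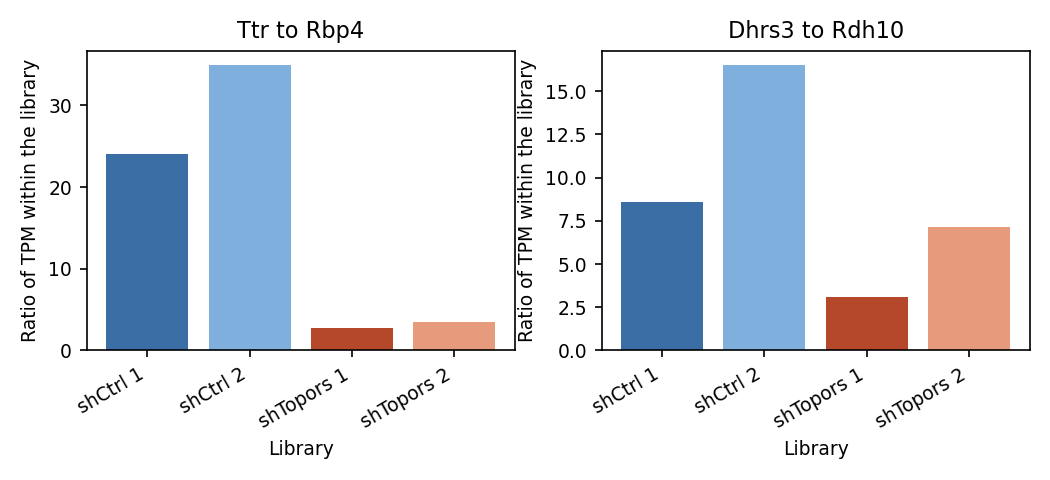
Ratio of TPM within each library (bars, 1 per library, from 0) for Ttr to Rbp4 on the left and Dhrs3 to Rdh10 on the right. The Ttr to Rbp4 bars are 24.1 and 34.9 in shCtrl and 2.74 and 3.50 in shTopors, and the Dhrs3 to Rdh10 bars of shTopors also lie below both controls.

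Dhrs3 and Stra6 were lower in both knockdown libraries and did not pass the test. Dhrs3, the retinal reductase that limits retinoic acid formation, was at 210.0 and 288 TPM in the controls, against 83.8 and 91.9 TPM in the knockdown libraries. Its means were 249 ± 54.9 and 87.8 ± 5.70 TPM (SD, n = 2), 2.83-fold lower, and its log2 change was -1.48 (SE 0.250, adjusted p = 0.121 in limma's test). Stra6 was at 15.2 and 13.0 TPM in the controls, against 8.24 and 5.35 TPM in the knockdown libraries. Its means were 14.1 ± 1.55 and 6.79 ± 2.04 TPM, 2.07-fold lower, and its log2 change was -0.97 (SE 0.310, adjusted p = 0.245). The groups did not overlap for either gene, and the 2 knockdown values of Dhrs3 were close together. With shTopors 1 left out limma's adjusted p was 0.000513 for Dhrs3 and 0.00972 for Stra6, and with shTopors 2 left out it was 0.000203 for Dhrs3 and 0.161 for Stra6. Leaving out shCtrl 1 or shCtrl 2 gave 0.328 or 0.868 for Dhrs3 and 0.733 or 0.985 for Stra6. Stra6 overlaps Ccdc33 on the other strand and Gm16131 on its own in the annotation, and neither was above 0.0545 TPM in any library.

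Rdh10 and Aldh1a1 overlapped between the groups. Rdh10, the retinol dehydrogenase of the first oxidation step, was at 24.4 and 17.4 TPM in the controls, against 27.0 and 12.9 TPM in the knockdown libraries. The knockdown libraries enclosed both controls, and the log2 change was -0.13 (SE 0.390, adjusted p = 0.884 in limma's test). Its sign turned positive under median-of-ratios scaling (0.05), with quantile-normalized values (0.03) and without shCtrl 1 (0.10) or shTopors 2 (0.37). Aldh1a1, the most abundant retinal dehydrogenase gene here, was at 816 and 1111 TPM in the controls, against 694 and 832 TPM in the knockdown libraries. Its means were 963 ± 208.5 and 763 ± 97.4 TPM (SD, n = 2), with a log2 change of -0.32 (SE 0.232, adjusted p = 0.525). The shTopors 2 value lay just above shCtrl 1.

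The balance of retinal reductase to retinol dehydrogenase transcripts was lower in the knockdown. Dhrs3 was at 8.61 and 16.5 times the Rdh10 level in shCtrl and at 3.10 and 7.12 times in shTopors. The groups did not overlap, but shTopors 2 was closer to shCtrl 1 than to shTopors 1. Aldh1a1 made up 96.1% and 93.8% of the summed TPM of Aldh1a1, Aldh1a2, Aldh1a3 and Aldh1a7 in shCtrl, and 95.7% and 95.6% in shTopors. Aldh1a7 is a close mouse paralog of Aldh1a1, so reads of the pair may not be fully separated.

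The remaining pair was near or at 0. Crabp2 was listed at 0 in all 4 libraries. Aldh1a2, a retinal dehydrogenase best known from embryonic tissues, was listed at 0.0244 and 0 TPM in the controls, against 0.0209 and 0 TPM in the knockdown libraries. No comparison between groups was made for either gene.

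The order of levels differed between the groups. In shCtrl it ran Ttr, Aldh1a1, Dhrs3, Rbp4, Rdh10, Stra6. The lower Ttr control, 1119 TPM, was just above the higher Aldh1a1 control, 1111 TPM, and the last 2 also lay close together, with the lower Rdh10 value at 17.4 TPM and the higher Stra6 value at 15.2 TPM. In shTopors Aldh1a1 came first and Ttr after it, and there were 0.281 and 0.493 Ttr transcripts per Aldh1a1 transcript, against 1.37 and 1.95 in shCtrl. Rbp4 and Dhrs3 had overlapping values in shTopors, whereas in shCtrl Dhrs3 stood above Rbp4 in both libraries.

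As a whole, 3 of the 6 tested genes had both knockdown libraries below both controls and 1 had both above. Over all genes tested these shares were 35.2% and 14.6%. At an unadjusted p under 0.05 the same counts were 3 lower (Ttr, Dhrs3, Stra6) and 1 higher (Rbp4), against 10.7% and 3.98% of all genes tested. Rbp4, with an unadjusted p = 0.0479 in limma's fit, lost this place in 8 of the 14 alternatives, among them the fits without shCtrl 1, shCtrl 2 or shTopors 2, and Stra6 lost it without shCtrl 1 or shCtrl 2. The median log2 change was -0.65 over the 6 genes and -0.18 over all genes tested. After median-of-ratios scaling the all-gene median was -0.016, and 6.75% of genes were lower and 7.85% higher at an unadjusted p under 0.05. Relative to the all-gene median the changes were -2.27 for Ttr, -1.29 for Dhrs3, -0.79 for Stra6, -0.14 for Aldh1a1, 0.05 for Rdh10 and 0.94 for Rbp4.

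**Figure D3:**
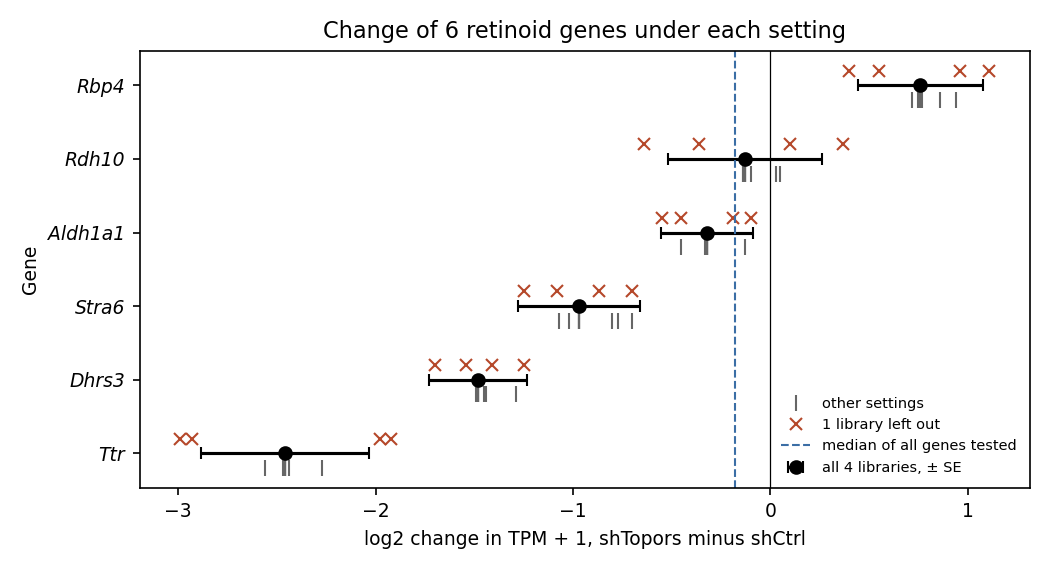
The log2 change (x axis, shTopors minus shCtrl, in TPM + 1) of each tested gene with all 4 libraries (point with SE), under the other settings (ticks) and with 1 library left out (crosses), beside the median of all genes tested (dashed). Ttr, Dhrs3, Stra6 and Aldh1a1 stay below 0 and Rbp4 stays above 0 under the settings run, and Rdh10 lies on both sides.

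Promoter sequence is shown for the 3 genes that differ in direction and have a window in RefSeq's table for GRCm38.p6, the mm10 build, together with Aldh1a1 as the abundant gene whose groups overlapped. Each window runs from 250 bases before to 50 after a RefSeq start, on the strand of the gene, and where the table lists several starts the one nearest to the GENCODE M21 principal transcript was taken. Rbp4 lies at chr19:38124762-38125061 on the minus strand, Stra6 at chr9:58128838-58129137, Dhrs3 at chr4:144892827-144893126 and Aldh1a1 at chr19:20601718-20602017, these 3 on the plus strand. Capitals mark matches on either strand to any of 6 short motifs. These were the half-site AGGTCA of retinoic acid receptors, the TATA box core TATAAA, the HNF1 half-site GTTAAT, the GC box GGGCGG, and for FOXA factors the core TGTTTAC and its variant, which has the letters TATTTAC.
Rbp4: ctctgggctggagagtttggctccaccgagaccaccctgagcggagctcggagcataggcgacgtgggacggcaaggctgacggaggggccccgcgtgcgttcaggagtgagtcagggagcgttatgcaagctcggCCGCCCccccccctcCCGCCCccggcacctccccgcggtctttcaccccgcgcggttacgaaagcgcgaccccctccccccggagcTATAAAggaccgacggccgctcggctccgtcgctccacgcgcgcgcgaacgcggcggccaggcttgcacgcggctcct
Stra6: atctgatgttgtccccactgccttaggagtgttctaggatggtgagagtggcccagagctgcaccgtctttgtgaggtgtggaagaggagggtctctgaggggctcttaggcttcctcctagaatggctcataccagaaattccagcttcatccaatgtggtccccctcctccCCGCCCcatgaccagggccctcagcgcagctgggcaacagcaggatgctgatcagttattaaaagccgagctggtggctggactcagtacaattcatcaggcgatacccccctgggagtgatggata
Dhrs3: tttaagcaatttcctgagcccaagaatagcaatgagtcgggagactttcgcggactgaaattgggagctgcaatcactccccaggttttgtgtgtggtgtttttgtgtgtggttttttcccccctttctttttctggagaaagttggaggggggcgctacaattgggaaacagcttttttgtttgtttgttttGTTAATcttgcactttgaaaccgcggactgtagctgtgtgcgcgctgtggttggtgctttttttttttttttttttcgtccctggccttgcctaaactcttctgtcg
Aldh1a1: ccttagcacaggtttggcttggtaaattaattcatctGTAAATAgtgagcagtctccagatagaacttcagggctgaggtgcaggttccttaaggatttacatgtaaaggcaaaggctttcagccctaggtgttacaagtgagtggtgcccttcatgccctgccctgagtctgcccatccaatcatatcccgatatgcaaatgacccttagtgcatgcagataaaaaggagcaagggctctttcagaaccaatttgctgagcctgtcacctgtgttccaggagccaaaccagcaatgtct

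The Rbp4 window held TATAAA from base 223 and 2 GC boxes, and was rich in G and C (72.0%). Stra6 held 1 GC box (55.7% G and C). Dhrs3 held GTTAAT from base 194 (45.0%) and Aldh1a1 held TATTTAC on the other strand from base 38 (47.0%). AGGTCA was in none of the 4 windows, and 16.2% of 32544 windows of this length held it. The other shares were 13.6% for the TATA box core, 3.66% and 3.04% for the FOXA core and its variant, 7.13% for the HNF1 half-site and 35.9% for the GC box. These are matches of letters in 1 window per gene, and binding was not measured.

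Among other genes that carry or take up retinoids none passed the threshold. Of 12 such genes 6 were tested, of which 4 had both knockdown libraries below both controls, a pattern that 35.2% of all genes tested had. Rbp2, the cellular retinol-binding protein of the intestine, was at 38.3 and 51.5 TPM in the controls, against 24.5 and 16.9 TPM in the knockdown libraries. Crabp1 was listed at 0, like Crabp2. Lrp1, a large endocytic receptor, was at 9.35 and 13.5 TPM against 4.25 and 2.49 TPM, and the fatty acid transporter gene Cd36 was at 2.33 and 4.42 TPM against 0.0139 and 0.672 TPM. Stra6l, a receptor for RBP4 in liver and intestine, was not above 0.0896 TPM in any library.

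None of the enzymes on either side of retinal passed the threshold. Of 21 other dehydrogenases and reductases 10 were tested, with 3 lower and 1 higher without overlap, near the 35.2% and 14.6% of all genes tested, and a median log2 change of -0.01. Rdh7 was at 5.00 and 11.2 TPM in the controls, against 0.0838 and 1.58 TPM in the knockdown libraries, and Dhrs4 at 46.7 and 48.7 TPM against 23.2 and 23.7 TPM. Their adjusted p values in limma's test were 0.169 and 0.196. Rdh5 was at 19.7 and 16.1 TPM against 15.2 and 6.18 TPM, and Rdh11 at 11.8 and 18.1 TPM against 20.2 and 19.2 TPM. Adh5 and Akr1b3, the most abundant of this list, overlapped, at 171 and 200.1 against 157 and 202 TPM and at 87.9 and 92.2 against 70.6 and 114 TPM.

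Beside the abundant Aldh1a1, most other genes for storage, oxidation and clearance had a mean under 1 TPM. Of 15 genes for retinyl esters and carotenoids 14 were in the table and 5 were tested. Of these 5, 2 were lower without overlap, near the 35.2% of all genes tested. Lpl, the lipoprotein lipase gene, was at 6.60 and 8.12 TPM in the controls, against 2.81 and 1.96 TPM in the knockdown libraries (adjusted p = 0.176 in limma's test). Of 10 other genes for retinal oxidation and retinoid clearance 4 were tested. Ugt2b35, a glucuronosyltransferase gene whose family has near-identical copies, was at 5.34 and 11.7 TPM against 0.419 and 2.66 TPM. Cyp26a1, the main retinoic acid hydroxylase gene, stayed between 0.158 and 0.334 TPM, and its relatives Cyp26b1 and Cyp26c1 were also under the filter.

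**Figure D4:**
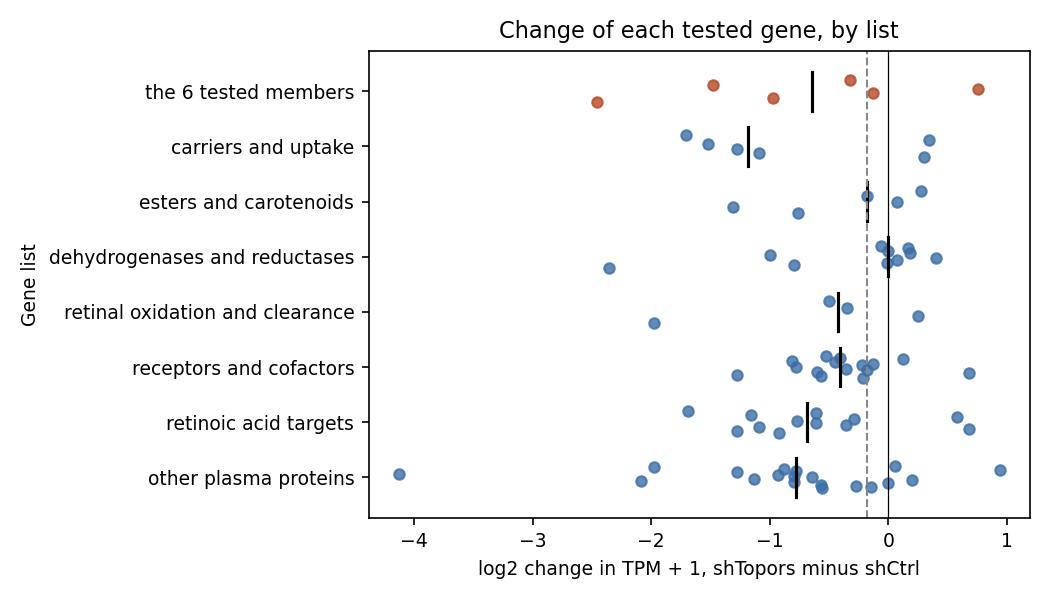
The log2 change (x axis, shTopors minus shCtrl, in TPM + 1) of every tested gene, by list, with a black bar at each list's median and a dashed line at the median of all genes tested (-0.18). The medians are -0.65 for the 6 retinoid genes examined here, -1.19 for other carriers, -0.41 for receptors and cofactors and -0.69 for retinoic acid targets. They are -0.18 for esters and carotenoids, -0.01 for dehydrogenases and reductases, -0.43 for retinal oxidation and clearance and -0.78 for other plasma proteins.

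No gene for a retinoic acid receptor or cofactor passed the threshold. Of 16 such genes 15 were tested, of which 10 were lower and 1 higher without overlap, against 35.2% and 14.6% of all genes tested. At an unadjusted p under 0.05, 3 of the 15 were lower and 1 was higher, against 10.7% and 3.98% of all genes tested. The 1 higher gene was Rarb, which had a control mean of 0.809 TPM and passed the filter only through the knockdown libraries. Rarg was at 19.4 and 15.6 TPM in the controls, against 11.2 and 3.70 TPM in the knockdown libraries, while Rarb was at 0.764 and 0.853 TPM against 1.86 and 1.92 TPM. The coactivator gene Ncoa1 was at 8.32 and 9.66 TPM against 5.01 and 4.40 TPM. Their adjusted p in limma's test was 0.285 for Rarg, 0.331 for Rarb and 0.272 for Ncoa1.

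Of 26 genes known as retinoic acid targets in other cells 12 were tested, and 10 were lower and 2 higher without overlap, against 35.2% and 14.6% of all genes tested. At an unadjusted p under 0.05 the counts were 5 and 1, against 10.7% and 3.98% of all genes tested. The median log2 change was -0.69, none passed the threshold, and some of its genes, among them Rarb, Nrip1, Cyp26a1 and Cyp26b1, also stand in the lists above. Tgm2, the transglutaminase gene, was at 540 and 608 TPM in the controls, against 314 and 291 TPM in the knockdown libraries. Gata6 was at 25.0 and 28.0 TPM against 14.5 and 8.78 TPM, and Foxa1 at 6.20 and 8.80 TPM against 1.54 and 1.65 TPM. Rarb was again the 1 higher gene at an unadjusted p under 0.05, with the limit given above.

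Joined without repeats, the 6 lists held 95 other retinoid genes, of which 49 were tested, and 15 of these were lower and 1 higher at an unadjusted p under 0.05, against 10.7% and 3.98% of all genes tested. Without shCtrl 2 the count was 9 lower of 50 tested, with 2.95% of all genes lower, and without shCtrl 1 it was 13 of 50, with 5.73%. It was 19 of 49 without shTopors 1, with 15.3% of all genes lower, and 17 of 49 without shTopors 2, with 19.6%. The median log2 change of the 49 genes was -0.45, against -0.18 over all genes tested. The lists were chosen with earlier results of these data known, so these counts are a description and not a test. Among the 15 lower genes Cd36 and Rdh7, with shTopors means of 0.343 and 0.832 TPM, passed the filter only through the controls. The 1 higher gene, Rarb, had a control mean of 0.809 TPM and passed it only through the knockdown libraries.

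Other plasma proteins made by hepatocytes gave a mixed picture beside Ttr. Of 30 genes 19 were tested and none passed the threshold. Of the 19, 5 were lower without overlap, a smaller share than the 35.2% of all genes tested, and 14 overlapped. At an unadjusted p under 0.05, 5 were lower and 0 higher, against 10.7% and 3.98% of all genes tested. Their median log2 change was -0.78, against -0.45 over the 49 other retinoid genes tested and -0.18 over all genes tested. Apoe, the apolipoprotein E gene, had the smallest p of the 19. It was at 209 and 426 TPM in the controls, against 7.65 and 32.9 TPM in the knockdown libraries. Its mean was 15.7-fold lower, a larger difference than that of Ttr (log2 change -4.13, adjusted p = 0.110 in limma's test). Hpx, which encodes the heme carrier hemopexin, was at 354 and 457 TPM in the controls, against 131 and 66.5 TPM in the knockdown libraries (adjusted p = 0.121 in limma's test). Apob was at 319 and 360 TPM against 270.0 and 144 TPM, Apoc1 at 3.90 and 9.19 TPM against 1.60 and 2.24 TPM, and Trf, the transferrin gene, at 1556 and 2279 TPM against 1182 and 1373 TPM. Gc, the vitamin D-binding protein gene, overlapped, at 1240.0 and 1899 TPM against 373 and 1322 TPM. None of the 19 had, like Rbp4, both knockdown libraries above both controls. Hepatocyte markers summed to 2286 and 3257 TPM in shCtrl and to 1880.0 and 2104 TPM in shTopors, most of it Trf. Without Trf the sums overlapped, at 729.6 and 978 against 698 and 731 TPM. Of the 10 tested markers 7 overlapped and 3 were lower without overlap, near the 35.2% of all genes tested. The same 3 were lower at an unadjusted p under 0.05, against 10.7% of all genes tested. In bulk RNA fewer cells of a type and less RNA per cell cannot be told apart, and the part of cell state in the Ttr difference was not tested.

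Genes whose profile over the 4 libraries was most like that of a member were taken by the Euclidean distance between log2(TPM + 1) values after each gene's mean was subtracted. Among the 3 nearest to Ttr were the retinol dehydrogenase gene Rdh7 (distance 0.170) and Cyp4f14 (0.310). Both were low in shTopors, Rdh7 at 0.0838 and 1.58 TPM and Cyp4f14 at 0.1825 and 1.041 TPM. The added 1 TPM therefore shrinks their log2 changes and shapes these distances. In mean TPM Rdh7 was 9.77-fold lower and Ttr 5.43-fold lower, so the 2 falls were not alike in size. The Rdh7 values given above had the higher one of each group in the library numbered 2, as for Ttr. Within a distance of 0.5 of Ttr there were 7 tested genes, against 300 for Rbp4, 590 for Stra6, 195 for Dhrs3, 700 for Rdh10 and 4996 for Aldh1a1. Nearest to Rbp4 were Madd, Aldh3a2 and Tbkbp1, and Aldh3a2, a fatty aldehyde dehydrogenase gene, was at 36.6 and 50.6 TPM in the controls, against 58.4 and 94.2 TPM in the knockdown libraries. Rbp4 itself was at a distance of 3.25 from Ttr, in place 12497 by distance.

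Nearest to Dhrs3 were Vps37a, Nrp2 and Pik3r1, and among the 3 nearest to Stra6 were Fnbp1 and Ddr1. Those for Rdh10 were Sema4d, Mirt1 and Sgms1, and those for Aldh1a1 were L3hypdh, Zkscan6 and Pcdh7. With 4 libraries such likeness is a description of these profiles only.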

How the data were processed

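RNA of AML12 cells infected with shCtrl or shTopors lentivirus was measured in 2 libraries per group. Per the labels' protocols they were strand-specific and depleted of ribosomal RNA. The authors deposited 1 table of TPM per gene and library. The submitters' processing notes list the tools DESeq2, HISAT2, HTSeq and StringTie with build mm10, but no versions or roles, and a strand setting for the counting is not given in these sources. For 3 repeated identifiers the values were summed.

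The test was limma 3.58.1 (R 4.3.3) on log2(TPM + 1), empirical Bayes with a trend, for the 13509 genes whose mean reached 1 TPM. It compared shTopors with shCtrl, with Benjamini-Hochberg adjustment over all genes tested and calls under 0.05. A fold change on this scale understates the change of low genes. TPM keeps no depth, so no counting interval was computed. The fit was also run on simulated libraries, with changes put only into genes with a control mean of at least 20 TPM, which leaves out Stra6. There it called 63.8% of changed genes with a log2 fall of 1 and 100% with a fall of 2, with 7.5 false calls on average. In the real libraries Ttr and Topors, at -2.46 and -2.27, were not called. The simulated noise was drawn independently for each gene from a smoothed spread, so these shares need not hold for the real libraries.

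The members and lists were chosen with earlier results of these data known. Named genes are the members, Topors, the 4 genes of smallest p in each list (the text gives some of these), list genes of at least 20 TPM, and the 3 nearest profiles of each member. Stra6l and Cyp26a1 were named after their values were seen. Some genes that this rule would name are not reported here. Loci came from GENCODE M21 and promoters from RefSeq (GRCm38.p6). No promoter was shown for Ttr, Crabp2, Rdh10 and Aldh1a2. Alternatives were pseudocounts of 0.1 and 5, filters, scalings, other variance models, leaving out each library, and the replicate number as a block, and rescaling to protein-coding genes was added after seeing the data. Python 3.11.15, pandas 2.3.3 and matplotlib 3.10.9 were used.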

Additional observations from a re-analysis of the deposited data

How the results depend on the processing

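Of the 6 tested genes, 5 kept the sign of their log2 change under the 14 alternatives. The exception was Rdh10, at 0.05 under median-of-ratios scaling and 0.03 with quantile-normalized values. Leaving out 1 library gave log2 changes from -2.99 to -1.92 for Ttr, from 0.40 to 1.11 for Rbp4, from -1.25 to -0.70 for Stra6, from -1.70 to -1.25 for Dhrs3, from -0.64 to 0.37 for Rdh10 and from -0.55 to -0.10 for Aldh1a1. The adjusted p of Ttr in limma's test spanned 2.02e-10 to 0.868 over its alternatives. The count of genes called, 5 with all libraries, was 0 with no filter on low values (where more genes were tested) and 1 with a filter at 5 TPM, under median-of-ratios scaling, with quantile-normalized values or when rescaled to protein-coding genes. It ranged from 0 to 2029 with 1 library left out, 0 without shCtrl 2, 1163 without shTopors 1 and 2029 without shTopors 2. At an unadjusted p under 0.05 that fit without shCtrl 2 had 278 genes higher and 394 lower, and the fit with no filter 655 and 2075. Other causes of these shifts were not tested. With all libraries and an unadjusted p under 0.05, 537 genes were higher and 1447 lower, and after median-of-ratios scaling 1061 and 912.

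With the replicate number as a block 33 genes were called, and Ttr passed at a log2 change of -2.46 (adjusted p = 0.0295 in limma's test). The block changed the call of no other tested member. The labels give the libraries only a shared number, and the correlation of same-numbered deviations was 0.199. With 2 libraries per group the second pair mirrors the first, so this is 1 value and not 2. The depth is unknown, so how far it limits Stra6, Aldh1a2 and Crabp2 cannot be said.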

Other observations

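Several retinoid genes separated the 2 knockdown libraries rather than the groups. Fabp5, whose product also carries retinoic acid, was at 69.3 and 72.7 TPM in the controls but at 162 TPM in shTopors 1 and 49.9 TPM in shTopors 2. Cyp2s1 was at 2.50 and 3.03 TPM in the controls but at 10.8 TPM in shTopors 1 and 0.698 TPM in shTopors 2. Bco1, which cleaves beta-carotene to retinal, was at 9.68 and 8.60 TPM in the controls but at 16.2 TPM in shTopors 1 and 7.75 TPM in shTopors 2. Pnpla2, a lipase gene, was at 38.8 and 30.6 TPM in the controls but at 39.6 TPM in shTopors 1 and 9.80 TPM in shTopors 2. Aox1, an aldehyde oxidase gene, went the other way, at 16.1 and 19.2 TPM in the controls, with 7.20 TPM in shTopors 1 and 24.9 TPM in shTopors 2. In each of these 5 genes the knockdown libraries lay on opposite sides of both controls. Rdh14, Akr1b3, Adh5 and Rxrb, also in the lists, had the same pattern. Its share over all genes tested was not computed, so it is not a trait particular to retinoid genes. The 5 genes were chosen after their values were seen and were given no test.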
